A study of Mus musculus with 9 samples.

Results

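The set described here holds 8 mouse genes out of the 46078 genes in the deposited count table: Foxp3, Ctla4, Tnfrsf18, Tnfrsf4, Tnfrsf9, Lag3, Tigit and Nt5e. They were taken from the table by gene symbol, and they were chosen by measured values, namely their difference between lymphoma and control and their spread among the controls. Both are therefore given as descriptions with no test. The study sequenced transcript 3′ ends in 6 lymphomas and 3 controls. The lymphoma libraries (34, 53, 56, 70, 72 and 86) came from MYCN-induced T cell lymphoma cells of the thymus, and the control libraries (CD4 1, 2 and 3) from CD4+ T cells of the spleen. Both groups were of the C57BL/6J strain. The labels give no age, no treatment, no promoter or cell type that drives MYCN, and no statement on whether animals were pooled or lymphomas arose independently. P-values therefore measure the spread between these libraries, which may in part be technical.

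Regulatory T cells are CD4 T cells that restrain other immune cells, and Foxp3 is the transcription factor that defines them. They carry CTLA-4 (Ctla4), which takes the ligands CD80 and CD86 away from the activating receptor CD28, and the TNF receptors GITR (Tnfrsf18), OX40 (Tnfrsf4) and CD137 (Tnfrsf9), which recruit TRAF adaptors and activate NF-κB when bound by their ligands. LAG-3 (Lag3) binds MHC class II, TIGIT (Tigit) binds the poliovirus receptor family, and CD73 (Nt5e) is a surface enzyme that turns AMP into adenosine. Activated conventional T cells also carry most of these receptors, and resting conventional T cells carry CD73.

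Reads counted in genes ranged from 11170704 to 15769679 in lymphoma and from 8099960 to 10808828 in CD4. Levels are in CPM, a gene's share of the reads counted in genes, with library totals scaled by TMM. The limit that a zero allows was set at 3 counts. On this scale, that is 0.274 CPM in the shallowest lymphoma and 0.360 CPM in the shallowest CD4 library, which covers counting error only. Tissue and group coincide in the labels, and sex coincides with them too: Xist stood at 4.66 to 11.3 CPM in lymphoma and 493 to 582 CPM in CD4. Foxp3 is X-linked, so the part of sex in its difference cannot be told apart. The groups also differed in markers of other cells. All 10 listed B cell markers were lower in lymphoma, with a summed level of 255 to 421 CPM against 2239 to 2802 CPM in CD4, so B cell marker RNA was present in the CD4 libraries. Of 8 T cell markers, Cd2 and Cd4 were lower in lymphoma and 6 did not pass the test, among them Cd3d, Cd3e and Cd3g. The 8 T cell markers summed to 1567 to 2567 CPM in lymphoma and 2602 to 2722 CPM in CD4.

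The promoters of the genes are shown first, because the 6 genes of the set that could be measured lay low together in lymphoma. RefSeq windows (GRCm38.p6, from 250 bases before to 50 after a transcript start) were found for 7 of the 8 genes, in 9 windows. They were searched on both strands for the E-box CACGTG, which MYC family factors bind, the AP-1 motif TGACTCA, the NF-κB motif (GGGA, any base, TT, any base, then CC), the forkhead motif TGTTTAC, the RUNX motif TGTGGTT and the NFAT core GGAAAA. Capitals mark every match, and no 2 matches overlap. The windows below are those of Foxp3 (chrX:7579426-7579725, the first of its 2 windows), Ctla4 (chr1:60908775-60909074), Tnfrsf18 (chr4:156026072-156026371), Tnfrsf4 (chr4:156013445-156013744) and Tnfrsf9 (chr4:150927749-150928048, the second of its 2 windows). Each lies on the plus strand and is printed 5′ to 3′.
Foxp3: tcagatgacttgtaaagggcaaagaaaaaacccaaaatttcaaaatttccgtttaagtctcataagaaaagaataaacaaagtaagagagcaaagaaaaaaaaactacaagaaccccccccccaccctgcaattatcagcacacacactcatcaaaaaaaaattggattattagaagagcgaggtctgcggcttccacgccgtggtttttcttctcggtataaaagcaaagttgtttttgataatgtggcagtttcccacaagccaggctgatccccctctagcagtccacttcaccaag
Ctla4: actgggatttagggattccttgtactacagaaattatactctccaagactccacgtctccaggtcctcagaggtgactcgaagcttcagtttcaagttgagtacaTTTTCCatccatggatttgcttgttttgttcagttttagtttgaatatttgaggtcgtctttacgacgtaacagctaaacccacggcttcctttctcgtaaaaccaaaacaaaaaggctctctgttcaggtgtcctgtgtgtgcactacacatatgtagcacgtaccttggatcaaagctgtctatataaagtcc
Tnfrsf18: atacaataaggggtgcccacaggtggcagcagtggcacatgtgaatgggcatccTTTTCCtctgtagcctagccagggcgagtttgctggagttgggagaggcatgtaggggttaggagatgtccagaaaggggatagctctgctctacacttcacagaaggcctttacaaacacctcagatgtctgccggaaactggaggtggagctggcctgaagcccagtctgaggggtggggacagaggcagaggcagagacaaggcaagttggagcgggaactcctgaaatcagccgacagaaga
Tnfrsf4: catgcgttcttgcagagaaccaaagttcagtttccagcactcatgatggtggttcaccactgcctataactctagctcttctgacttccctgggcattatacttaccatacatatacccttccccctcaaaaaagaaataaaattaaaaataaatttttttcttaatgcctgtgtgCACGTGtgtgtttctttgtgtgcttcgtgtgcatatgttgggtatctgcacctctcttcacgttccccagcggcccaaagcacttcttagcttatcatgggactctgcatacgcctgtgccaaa
Tnfrsf9: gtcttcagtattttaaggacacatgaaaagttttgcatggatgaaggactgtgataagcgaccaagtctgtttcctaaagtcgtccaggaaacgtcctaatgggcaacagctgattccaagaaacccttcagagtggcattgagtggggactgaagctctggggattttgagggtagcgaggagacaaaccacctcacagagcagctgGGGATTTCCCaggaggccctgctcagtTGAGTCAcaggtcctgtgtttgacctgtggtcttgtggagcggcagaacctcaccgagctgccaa

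No motif of the 6 was shared by all windows. The E-box was found in the Tnfrsf4 window alone among the 9 windows, and in 7.15% of all 32851 promoter windows. The Tnfrsf9 window held 1 NF-κB match (1.20% of all windows) and 1 AP-1 match (5.20%). The NFAT core, which 23.4% of all windows hold, occurred in the windows of Ctla4 and Tnfrsf18, in the other Foxp3 and Tnfrsf9 windows and in that of Tigit. The Tigit window alone held the RUNX motif (5.27% of all windows), and no window held the forkhead motif (3.65%). CG pairs numbered 4 to 8 in every window except that of Nt5e, which had 23, against a median of 7 over all windows. These matches describe letters only.

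Foxp3 (chrX:7573644-7595245, plus strand, GENCODE M21 on GRCm38) had 719, 218 and 299 counts in CD4 1, 2 and 3, and 0, 1, 0, 0, 1 and 6 counts in lymphomas 34, 53, 56, 70, 72 and 86. Scaled to CPM, the CD4 libraries stood at 68.6, 26.2 and 27.4. Lymphoma 86 had 0.433 CPM and the other lymphomas at most 0.0913 CPM. Every CD4 library was far above every lymphoma, with the lowest CD4 library 60.4-fold above the highest lymphoma. The CD4 mean was 40.7 ± 24.1 CPM (SD, n = 3). In 5 of the 6 lymphomas Foxp3 did not exceed 3 counts, and set against 3 counts per library it was at least 191-fold lower there than this mean. The fitted log2 fold change, lymphoma over CD4, was -8.61 (SE 0.755). It was -10.04 without lymphoma 86 and -8.00 without CD4 1, so single libraries set its size.

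Ctla4 (chr1:60887000-60915832, plus strand), the inhibitory receptor, had 686, 404 and 1361 counts in CD4 1, 2 and 3 and 2, 0, 0, 1, 2 and 5 counts in the lymphomas in the order above. The CD4 libraries stood at 65.5, 48.5 and 125 CPM, and lymphoma 86 was again the highest lymphoma at 0.361 CPM. The groups lay 134-fold apart at their nearest libraries. In the 5 lymphomas that did not exceed 3 counts, Ctla4 was at least 373-fold lower than the CD4 mean of 79.6 ± 40.1 CPM (SD, n = 3). Its fitted log2 fold change was -9.30 (SE 0.551), and -9.95 without lymphoma 86. The table holds a second identifier under the symbol Ctla4, with 0 counts in all libraries.

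The TNF receptors remained measurable in every lymphoma. Tnfrsf18 (chr4:156026164-156028895), which encodes GITR, stood at 20.8, 23.8, 13.7, 32.6, 31.5 and 15.8 CPM in lymphomas 34, 53, 56, 70, 72 and 86, and at 92.4, 56.9 and 67.1 CPM in CD4 1, 2 and 3. Lymphomas 70 and 72 were the highest lymphomas and still lay under the lowest CD4 library, which was 1.75-fold above lymphoma 70. The fitted log2 fold change was -1.65 (SE 0.277), the smallest of the 6 measured genes.

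Tnfrsf4 (chr4:156013843-156016612), which encodes OX40, lies 9551 bases from Tnfrsf18 on the same strand. It stood at 4.26, 5.75, 4.51, 3.25, 4.06 and 3.18 CPM in the lymphomas and at 41.8, 35.9 and 47.0 CPM in CD4. The lymphomas lay close together, with a highest-to-lowest ratio of 1.81, and the order of lymphomas was not that of Tnfrsf18. The ratio of group means, CD4 over lymphoma, was 9.97 for Tnfrsf4 (log2 fold change -3.32, SE 0.241) and 3.13 for Tnfrsf18. The difference between these neighbouring genes was not tested.

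Tnfrsf9 (chr4:150914562-150946102), which encodes CD137, varied most among lymphomas of the 4 genes with more than 3 counts in every lymphoma. It stood at 2.51, 4.57, 0.582, 3.49, 2.29 and 1.37 CPM in lymphomas 34, 53, 56, 70, 72 and 86, a highest-to-lowest ratio of 7.84, and at 36.6, 19.1 and 21.8 CPM in CD4. Lymphoma 56, the lowest, had 8 counts. The fitted log2 fold change was -3.39 (SE 0.488). Camta1 overlaps 28781 bases of Tnfrsf9 on the opposite strand, so without a stated strand setting reads there may be shared or set aside as ambiguous.

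Nt5e (chr9:88327197-88372092, plus strand), which encodes CD73, stood at 13.4, 3.84, 9.75, 11.8, 4.71 and 6.35 CPM in the lymphomas and at 39.8, 43.1 and 44.7 CPM in CD4. Lymphomas 34, 56 and 70 were the higher 3 and lymphoma 53 the lowest, and the groups did not overlap. The fitted log2 fold change was -2.35 (SE 0.357).

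**Figure D1:**
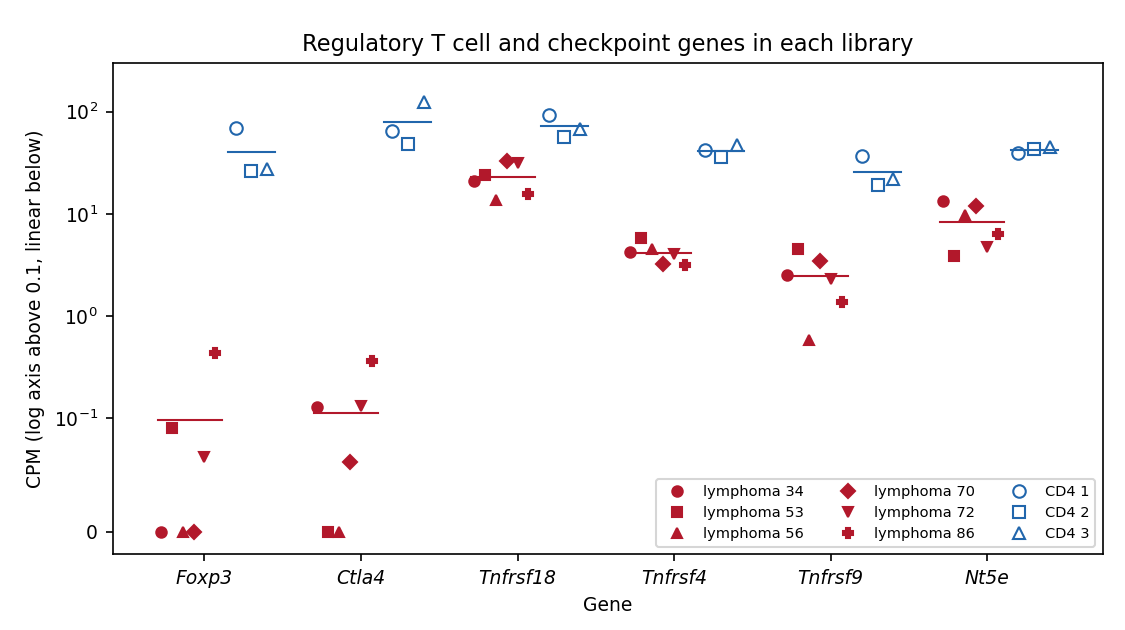
CPM (vertical axis, logarithmic above 0.1 and linear below) of the 6 measured genes in each of the 6 lymphoma and 3 CD4 libraries, with a line at each group mean. Foxp3 and Ctla4 sit at or near 0 in the lymphomas, while Tnfrsf18, at 13.7 to 32.6 CPM, is the nearest to its CD4 libraries.

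Lag3 (chr6:124904361-124911705) and Tigit (chr16:43648867-43664146) were listed at 0 counts in all 9 libraries, CD4 included, so nothing can be said of either gene between the groups. Of 21519 protein-coding genes matched to the annotation, 5364 (24.9%) were likewise at 0 throughout. Genes that cells use widely were also near 0 in this table. Gapdh, a glycolytic enzyme, had 0 to 22 counts in CD4, and Tnfrsf14, a receptor found on most T cells, had 0 counts in each CD4 library. The zeros of Lag3 and Tigit therefore cannot be read as absence of the transcripts, and their cause was not tested.

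Of the 8 genes, 6 passed the filter on low counts, Foxp3 and Ctla4 through their CD4 counts alone. All 6 had every lymphoma below every CD4 library, where 22.3% of tested genes did and 22.6% had every lymphoma above. Their median log2 fold change was -3.35, against 0.04 over all tested genes. These values follow from how the genes were chosen, and no test is given for them. For reading the tests on other genes, 46.6% of the 15401 tested genes were called by edgeR at an adjusted p under 0.05, 24.7% higher and 21.9% lower, a balance that turned under upper quartile scaling and limma voom. Fewer regulatory T cells and less of these RNAs per cell cannot be told apart in bulk RNA, and the part of the B cell marker RNA, which was lower in the same libraries, was not tested.

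The spread among the 3 CD4 libraries differed from gene to gene. The highest-to-lowest ratio in CPM was 2.62 for Foxp3, 2.58 for Ctla4, 1.92 for Tnfrsf9, 1.62 for Tnfrsf18, 1.31 for Tnfrsf4 and 1.12 for Nt5e, against a median of 1.56 over tested genes. CD4 1 was the highest library for Foxp3, Tnfrsf18 and Tnfrsf9, and CD4 3 was the highest for Ctla4, Tnfrsf4 and Nt5e. Over all tested genes, CD4 1 was the highest library for 35.9%, CD4 2 for 32.1% and CD4 3 for 32.0%. Foxp3 and Ctla4 thus peaked in different control libraries. In log2 CPM, the SD over CD4 libraries was 0.78 for Foxp3 and 0.70 for Ctla4, values that 21.3% and 24.7% of tested genes exceeded. For Nt5e the SD was 0.09, and 93.1% of tested genes had a larger one.

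**Figure D2:**
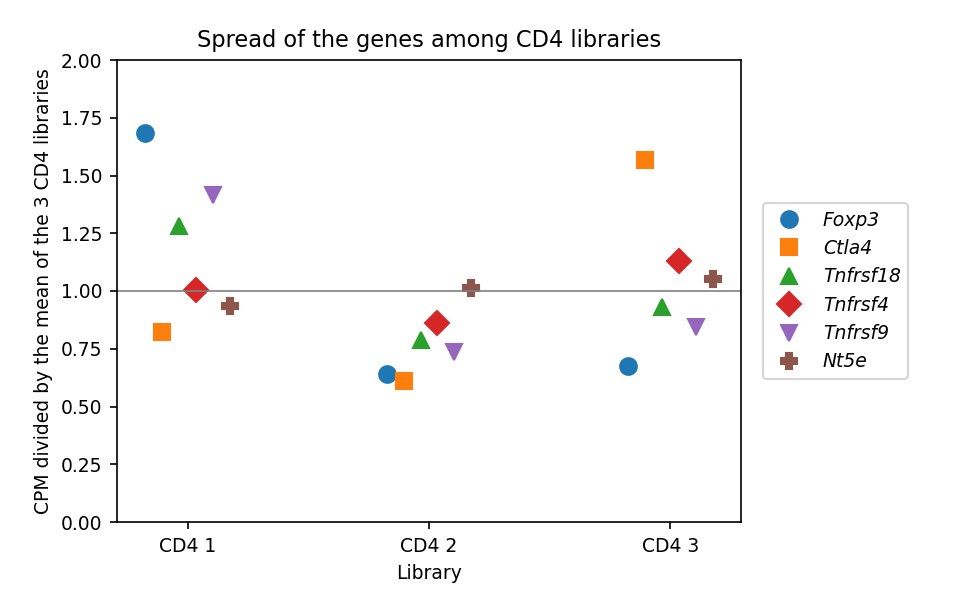
CPM of each gene in CD4 1, 2 and 3 (horizontal axis) divided by its mean over these 3 libraries (vertical axis, where 1 is the mean). Foxp3, Tnfrsf9 and Tnfrsf18 are highest in CD4 1, Ctla4 is highest in CD4 3, and Nt5e stays near 1 in each library.

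Other genes were set beside this spread. Of 28 tested regulatory T cell signature genes, 18 were highest in CD4 1. Among them, Nrp1 stood at 128, 81.8 and 65.6 CPM in CD4 1, 2 and 3 and Lrrc32 at 11.5, 6.36 and 7.71 CPM. Il2ra, the α chain of the interleukin 2 receptor, did not share this order, at 55.1, 47.4 and 55.4 CPM. The summed B cell markers were also highest in CD4 1 (2802 CPM, with 2239 in CD4 2 and 2274 in CD4 3), and their part in the order was not tested. CD4 3, where Ctla4 peaked, also had the highest Tnfaip3, an NF-κB inhibitor (10.2, 18.8 and 170 CPM), and the highest Nr4a1, a gene induced by receptor signalling (44.5, 43.2 and 182 CPM). Both were singled out after their values were seen. Of the 20 TRAF and NF-κB genes, the list of Tnfaip3, 7 were highest in CD4 3 and 10 in CD4 1. Of the 25 Foxp3 regulators and partners, the list of Nr4a1, 13 were highest in CD4 3 and 9 in CD4 1.

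The genes most like Foxp3 over the 9 libraries, by Pearson correlation of log2 CPM among 12551 genes, were Ntrk3 (r = 0.998), Nfkb2 (0.994), Syt11 (0.993), Ly6d (0.993) and F2r (0.993). These correlations are dominated by the gap between the groups. Over the CD4 libraries alone, by the root mean square difference of centred log2 CPM, the closest were 1700010I14Rik, Vpreb3, RP24-478I22.8, Myo6 and Znhit2, with differences from 0.01 to 0.03. Vpreb3, a gene of developing B cells, stood at 38.6, 15.1 and 15.5 CPM in CD4 1, 2 and 3. With 3 libraries, many genes share any given order.

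Genes beside the set on the chromosome were tested. Cd4 among them marks the cells that served as controls, so its difference is tied to how the control was defined. Of 14 neighbouring protein-coding genes, 10 were tested, of which 2 were higher, 5 lower and 3 not past the threshold, where 24.7% of all tested genes were higher and 21.9% lower. Ctla4 lies between Cd28 and Icos, the activating receptors of its family. Icos averaged 159 ± 25.8 CPM over the CD4 libraries (SD, n = 3) and 1.43 ± 1.06 CPM over the lymphomas (SD, n = 6). It fell by 6.76 on the log2 scale (SE 0.528, edgeR adjusted p 4.29e-06). Cd28 fell by 0.84 on the log2 scale (SE 0.223, edgeR adjusted p 0.00869), and the call was lost without CD4 3 (adjusted p 0.0934), whose 651 CPM stood above the 338 and 358 CPM of CD4 1 and 2. Cd4, beside Lag3, fell by 2.76 (SE 0.717, edgeR adjusted p 0.0111), and Ptms, on the other side of Lag3, fell by 1.37 (SE 0.501, edgeR adjusted p 0.0415, lost in 8 of 16 alternatives). Zbtb20, beside Tigit, fell by 2.87 (SE 0.362, edgeR adjusted p 8.47e-05). Park7, beside Tnfrsf9, rose by 1.48 (SE 0.283, edgeR adjusted p 0.00119). Camta1, which overlaps Tnfrsf9 on the opposite strand, rose by 0.78 (SE 0.207, edgeR adjusted p 0.0088). Sdf4, Snx14 and Ppp1r3f did not pass the threshold (edgeR adjusted p 0.440, 0.428 and 0.0806), and Ccdc22, Ttll10, Drd3 and Tbx18 were not tested.

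The Foxp3 locus also carries Flicr, a long noncoding RNA that shares 7384 bases and the strand of Foxp3 and that the table names Ppp1r3fos. It was singled out after its values were seen. Flicr stood at 6.38, 1.74, 2.04, 3.43, 4.78 and 3.39 CPM in lymphomas 34, 53, 56, 70, 72 and 86, and at 14.0, 19.2 and 16.4 CPM in CD4. It fell by 2.18 on the log2 scale (SE 0.398, edgeR adjusted p 0.00085), but unlike Foxp3 it kept 19 to 99 counts in every lymphoma. Reads in the shared stretch may be counted for neither gene.

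The wider pathway was followed through 8 lists with 160 genes outside the set, of which 145 were tested. Of these, 77 were lower in lymphoma, 14 higher and 54 not past the threshold, and their median log2 fold change was -0.84. Among all 15401 tested genes, 21.9% were lower and 24.7% higher, and each list below is to be read beside these shares. The lists were written with earlier results of these data known, so they describe the pathway and are not independent evidence of its direction. For none of the lists was the part of RNA from B cells or other cell types in the falls tested. Summed CD8 T cell markers stood at 64.7 to 76.3 CPM in CD4 and 0.0645 to 77.0 CPM in lymphoma. NK cell markers numbered 6, of which 3 were lower in lymphoma, 1 higher and 2 not past the threshold.

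**Figure D3:**
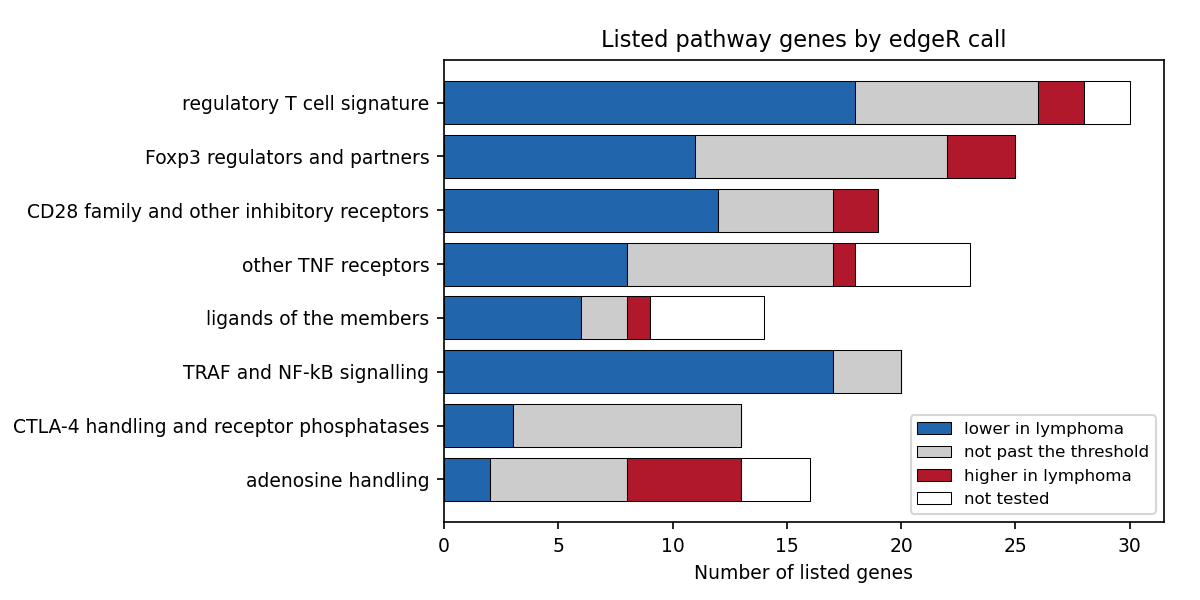
Number of genes (horizontal axis) in each of the 8 lists that were lower, higher or not past the edgeR threshold in lymphoma, or not tested. Lower genes make up 17 of 20 TRAF and NF-κB genes and 18 of 28 tested signature genes, while the adenosine list has 5 higher and 2 lower. Among all tested genes, 21.9% were lower and 24.7% higher.

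Of 28 tested regulatory T cell signature genes, 18 were lower and 2 higher, with a median log2 fold change of -2.57. Il2ra averaged 52.6 ± 4.53 CPM over the CD4 libraries (SD, n = 3) and 0.203 ± 0.170 CPM over the lymphomas (SD, n = 6). It fell by 7.92 on the log2 scale (SE 0.541, edgeR adjusted p 7.33e-07), with at most 6 counts in any lymphoma. Gzmb, a cytotoxic protease, had 0 counts in every lymphoma and was at least 12.5-fold lower against 3 counts per library (edgeR adjusted p 0.000942). The part of NK and CD8 T cell RNA in its fall was not tested. Ikzf2 and Ikzf4, which encode the regulatory T cell factors Helios and Eos, did not pass (edgeR adjusted p 0.203 and 0.384). Ikzf2 ranged from 74.9 to 362 CPM among lymphomas, with lymphoma 56 above all CD4 libraries (267 to 295 CPM), and without lymphoma 56 it passed as lower (edgeR adjusted p 0.0187). Cd81, a tetraspanin, rose by 1.06 (SE 0.234, edgeR adjusted p 0.00297). Tnfrsf1b, the second TNF receptor, rose by 0.75 (SE 0.279, edgeR adjusted p 0.0428), with lymphoma 53 below CD4 and a call lost in 12 of 16 alternatives.

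Among 25 regulators and partners of Foxp3, 11 were lower, 3 higher and 11 not past the threshold, with a median of -0.72. Satb1, a chromatin organiser, fell by 5.54 (edgeR adjusted p 2.75e-08), and Bach2, a repressor that favours regulatory over effector fate, fell by 5.35 (SE 0.339, edgeR adjusted p 5.47e-07). Dnmt1, the maintenance DNA methyltransferase, rose by 2.04 (SE 0.193, edgeR adjusted p 8.09e-06), and Cbfb, the partner of RUNX factors, by 1.20 (SE 0.281, edgeR adjusted p 0.00415). Lymphoma 53 stood low for Cbfb at 96.1 CPM, where the other lymphomas had 212 to 264 and CD4 77.7 to 111. Without it 5 genes of the list were higher in place of 3.

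Of 19 genes of the CD28 family and other inhibitory receptors, 12 were lower and 2 higher, with a median of -1.92. Pdcd1, which encodes PD-1, stood at 49.8, 257, 95.0, 64.7, 67.8 and 51.6 CPM in lymphomas 34, 53, 56, 70, 72 and 86, and at 2.67, 4.92 and 7.34 CPM in CD4. It rose by 4.29 (SE 0.694, edgeR adjusted p 0.000629), in the direction opposite to Ctla4, and every lymphoma was above every CD4 library. Cd160, another inhibitory receptor, rose by 1.36 (SE 0.195, edgeR adjusted p 0.000157). Klrc1, the NKG2A receptor, never exceeded 1 count in the lymphomas, a level at least 44.6-fold lower than in CD4 (edgeR adjusted p 6.68e-06). The part of NK and CD8 T cell RNA in the fall of Klrc1 was not tested. Havcr2, which encodes TIM-3, fell by 3.17 (edgeR adjusted p 0.00114) and Btla fell by 5.58 (edgeR adjusted p 5.97e-07).

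**Figure D4:**
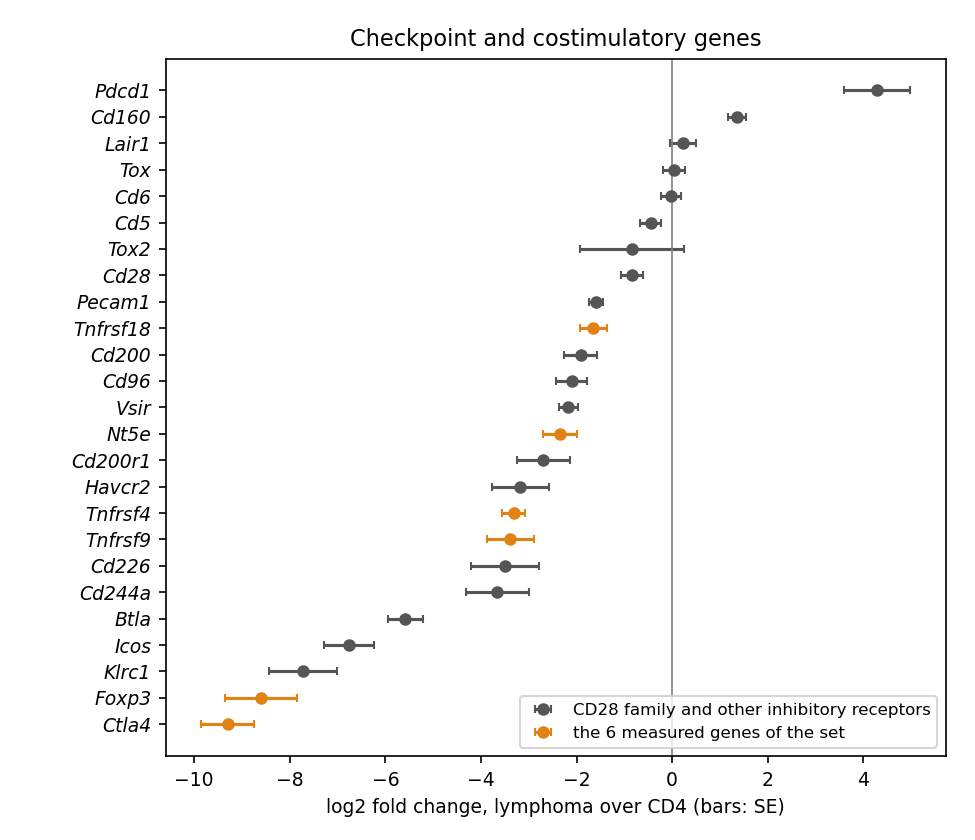
Fitted log2 fold change, lymphoma over CD4 (horizontal axis, bars show the SE), of the 6 measured genes of the set in orange and the 19 genes of the CD28 and inhibitory receptor list in grey. Pdcd1 at 4.29 and Cd160 at 1.36 lie to the right of 0, and Foxp3 and Ctla4 lie farthest to the left.

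Of 18 tested other TNF receptors, 8 were lower, 1 higher and 9 not past the threshold, with a median of -0.61. Cd40 fell by 5.82 (SE 0.437, edgeR adjusted p 1.45e-06) and Tnfrsf25 fell by 5.54 (SE 0.631, edgeR adjusted p 3.9e-05). Cd40 is known as a TNF receptor on B cells, and the part of RNA from B cells or other cells in its fall was not tested. Tnfrsf8, which encodes CD30, had 0 counts in each CD4 library and passed as higher (edgeR adjusted p 0.0391). It stood at 22.2 CPM in lymphoma 53 and at 0.262 to 1.10 CPM in the other lymphomas, and its call was lost in 5 of the 12 alternatives that gave it a value. Without CD4 3, 5 receptors were lower in place of 8.

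Downstream of these receptors, 17 of 20 TRAF and NF-κB genes were lower and 0 higher by edgeR, with a median of -1.43. At an adjusted p under 0.05, DESeq2 and limma voom also called 0 of them higher. The part of B cell RNA in the falls of this list was not tested. Traf1, an adaptor of OX40 and CD137, averaged 208 ± 14.7 CPM over the CD4 libraries (SD, n = 3) and 4.28 ± 2.74 CPM over the lymphomas (SD, n = 6). It fell by 5.61 on the log2 scale (SE 0.483, edgeR adjusted p 8.36e-06). Tnfaip3 fell by 3.75 (SE 0.743, edgeR adjusted p 0.00225), but it fell by 1.55 without CD4 3 (edgeR adjusted p 0.0211). Traf2, Traf6 and Ikbkg did not pass the threshold (edgeR adjusted p 0.0559, 0.646 and 0.656), but Traf2 passed as lower in 7 of 16 alternatives.

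Of 14 listed ligands, 9 were tested, of which 6 were lower and 1 higher. The median was -3.21, or -3.18 with Tnfsf18 at its bound. Cd86, a ligand of CTLA-4, fell by 3.50 (SE 0.547, edgeR adjusted p 0.000297), while Cd80 did not pass (edgeR adjusted p 0.152, limma voom adjusted p 0.0240). Tnfsf18, the GITR ligand, had 0 counts in every lymphoma and was at least 9.04-fold lower (edgeR adjusted p 0.00204). Nectin2, a TIGIT ligand, rose by 4.43 (SE 1.16, edgeR adjusted p 0.00831), on CD4 counts of 0, 0 and 8, and by 9.23 without CD4 3. H2-Aa, an MHC class II chain and so part of the LAG-3 ligand, fell by 4.46 (SE 0.300, edgeR adjusted p 7.33e-07). MHC class II and Cd86 belong to B and dendritic cells, and 7 of 8 dendritic cell markers were lower in lymphoma as well (summed 17.2 to 32.5 CPM against 242 to 268 CPM). Their part was not tested.

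Of 13 genes that handle CTLA-4 or act behind inhibitory receptors, 3 were lower and 0 higher by edgeR, and 10 did not pass, with a median of -0.04. Among all tested genes 21.9% were lower and 24.7% higher. The 3 lower genes are near the share of all tested genes and are not read as a result about the list. DESeq2 and limma voom also called 0 higher. Lrba, which keeps CTLA-4 from degradation, fell by 1.33 (SE 0.198, edgeR adjusted p 0.000204), and Pik3r1, a regulatory subunit of PI3 kinase, fell by 1.05 (SE 0.261, edgeR adjusted p 0.00596). Ptpn6 and Ptpn11, the SHP phosphatases, did not pass (edgeR adjusted p 0.130 and 0.757), but Ptpn6 passed as lower without lymphoma 53 (edgeR adjusted p 0.0378).

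Of 13 tested genes of adenosine handling, 5 were higher, 2 lower and 6 not past the threshold, with a median of 0.47. Nt5c2, a cytosolic nucleotidase, rose by 2.43 (SE 0.231, edgeR adjusted p 8.28e-06), and Slc29a1, a nucleoside transporter, by 2.38 (SE 0.251, edgeR adjusted p 1.73e-05). Cd38, an enzyme that consumes NAD, fell by 2.18 (SE 0.277, edgeR adjusted p 6.47e-05), and Dpp4, the surface protease CD26, fell by 0.64 (SE 0.214, edgeR adjusted p 0.0279, lost in 4 of 16 alternatives). Entpd1 (CD39), which supplies AMP to CD73 and was counted with the signature genes, fell by 2.45 (SE 0.421, edgeR adjusted p 0.000571). The receptor gene Adora2a did not pass (edgeR adjusted p 0.755).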

How the data were processed

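RNA 3′ ends were sequenced in 9 mouse samples, and the deposited table holds raw read counts per Ensembl gene made by the authors. The submitters' processing notes name FastQC, HISAT2, SAMtools and HTSeq and the builds mm10 and GRCm38. Annotation, strand setting and filters are not given in the sources used here. The 5 summary rows were kept out; gene rows held 44.0% ± 3.29 (SD, n = 6) of the counted reads for lymphoma, and 31.1% ± 3.69 (SD, n = 3) for CD4. Columns matching no sample numbered 0.

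The main test was edgeR 4.0.16 (R 4.3.3): filterByExpr (minimum count 10) kept 15401 genes, and TMM scaling and the quasi-likelihood test (robust, no covariate) used all 9 libraries. Adjusted p is Benjamini-Hochberg over these genes, with 0.05 as threshold. Log2 CPM used a prior count of 2. SE is the absolute log2 fold change over the square root of F. The test was checked on simulated counts, which varied less between libraries than these data and had far fewer changed genes. The check therefore does not show how the test behaves at the spread of these data. DESeq2 1.42.0 and limma 3.58.1 (voom) were alternatives. All 160 list genes were matched by GENCODE M21 identifier.

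The members and lists were chosen with earlier results of these data known. Named are all members, the 2 largest rises and falls past the threshold per list, chromosomal neighbours, the 5 genes most like Foxp3 by each measure, and nothing else by rule. Other genes (such as Flicr, Nrp1, Lrrc32, Ikzf2, Ikzf4, Havcr2, Btla, Cd86, Cd80, Entpd1, Nr4a1, markers and genes that did not pass) were named after their values were seen. Marker lists covered T, CD8 T, B, myeloid, dendritic, NK and stromal cells.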

Additional observations from a re-analysis of the deposited data

Results flagged for a closer look

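Each measure was examined over the 6 lymphomas for a library whose gap to its nearest neighbour exceeded 0.625 of the whole range, Dixon's 95% critical value. Of 48 measures, 10 met this. The 2.4 that the critical value gives by chance holds for independent and normally distributed measures. These measures come from the same libraries and some rest on few counts, so 10 is not read as an excess over 2.4. Among the 8 genes, lymphoma 86 stood apart for Foxp3 at 0.433 CPM (others 0 to 0.0913) and for Ctla4 at 0.361 CPM (others 0 to 0.131), which are 6 and 5 counts. Lymphoma 53 stood apart in 6 measures. It was high for Pdcd1 at 257 CPM (others 49.8 to 95.0), Pik3r1 at 208 CPM (others 83.8 to 124), Sdf4 at 144 CPM (others 81.7 to 104) and Tnfrsf8 at 22.2 CPM (others 0.262 to 1.10), and low for Cbfb at 96.1 CPM (others 212 to 264). Its summed CD8 T cell markers were 77.0 CPM, where the other lymphomas had 0.0645 to 2.27 and CD4 libraries 64.7 to 76.3. Lymphoma 86 was high for Nt5c2 at 77.2 CPM (others 54.9 to 60.1). The summed myeloid markers of lymphoma 56 were 2184 CPM (others 62.6 to 772).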

How the results depend on the processing

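No paired analysis was possible because the replicate numbers of the groups do not overlap. There were 16 refits, 9 of which left out 1 library. No measured gene of the set, tested neighbour or gene named by rule from the lists changed direction where a refit gave it a value. The genes most like Foxp3 were not refitted. Nr4a1, Xist, Gapdh, Tnfrsf14, Foxn1 and markers such as Cd2, Cd3d and Cd8a were not refitted. The other genes named after their values were seen, and the median of all tested genes, were refitted in the same way after the data had been seen. Of these genes, 4 that had not passed changed sign: with 1 library left out, log2 fold changes ranged from -0.235 to 0.0157 for Traf6 and -0.203 to 0.0179 for Ikbkg (both above 0 without CD4 3), -0.243 to 0.0334 for Ptpn11 (above 0 without lymphoma 53) and -0.343 to 0.0788 for Adora2a (above 0 without CD4 2). The median over all tested genes, 0.04, turned to -0.0152 under RLE, -0.0605 under upper quartile scaling and -0.0510 with DESeq2. Genes called higher, 3798 against 3376 lower, became the fewer under upper quartile scaling (3414 against 3707) and limma voom (3435 against 3782). The log2 fold change of Foxp3 ranged from -10.04 to -8.00 over the refits without 1 library, and that of Ctla4 from -9.95 to -8.81. The range of log2 CPM among CD4 libraries was 1.39 for Foxp3 (0.0681 without CD4 1, to 1.39), 1.36 for Ctla4 (0.43 to 1.36), 0.70 for Tnfrsf18 (0.24 to 0.70), 0.39 for Tnfrsf4 (0.17 to 0.39), 0.94 for Tnfrsf9 (0.19 to 0.94) and 0.17 for Nt5e (0.0524 without CD4 1, to 0.17). Over all listed genes 60 to 84 were lower and 10 to 16 higher. With at least 10 counts in every library, fewer genes were tested and 6 signature genes were lower, 5 other TNF receptors lower and 0 higher, and 0 ligands higher, and Foxp3, Ctla4 and Tnfrsf9 dropped out. Signature genes called higher numbered 1 in place of 2 under RLE, upper quartile and library size scaling, limma voom, the 10-count filter and an adjusted p under 0.01, and 1 to 2 without 1 library. Other TNF receptors called higher numbered 0 in place of 1 with DESeq2, limma voom, no filter and an adjusted p under 0.01, and 0 to 1 without 1 library; those lower numbered 5 to 9. Higher ligands numbered 0 with limma voom. Lower adenosine genes numbered 1 with an adjusted p under 0.01 and 1 to 3 without 1 library. Higher Foxp3 regulators numbered 2 to 5, and lower neighbours 3 to 5, without 1 library. The causes were not tested. Upper quartile scaling moved the median of all genes by -0.10 and no filter by 0.16.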

Other observations

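Genes listed as NK cell markers went different ways. Among the 6, 1 was higher in lymphoma, 3 lower and 2 not past the threshold, where 24.7% of all tested genes were higher and 21.9% lower. Over the lymphomas Gzma averaged 518 ± 164 CPM (SD, n = 6) and over the CD4 libraries 67.8 ± 5.47 CPM (SD, n = 3), a rise of 2.93 on the log2 scale (SE 0.288, edgeR adjusted p 1.03e-05). Prf1, the pore-forming protein that carries granzymes into target cells, never exceeded 1 count in the lymphomas, at least 20.1-fold lower than in CD4 (edgeR adjusted p 8.63e-05). Ncr1, a defining NK receptor, had 0 counts in every lymphoma and stood at least 41.3-fold lower (edgeR adjusted p 6.65e-05).

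Of 10 stromal and epithelial markers 5 were tested, of which 2 were higher and 3 did not pass. Dcn had 0 counts in CD4 and stood at least 13.7-fold higher in the lymphomas (edgeR adjusted p 0.000193), and Epcam rose by 3.85 (SE 0.655, edgeR adjusted p 0.000577). Foxn1, the defining factor of thymic epithelium, had at most 4 counts in any lymphoma. Of 11 myeloid markers, 3 were lower and 8 did not pass. The 2 CD8 T cell markers did not pass either: Cd8a stood at 25.6 to 31.8 CPM in CD4 and at 0.0645 to 29.4 CPM in lymphoma.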
